A study of Homo sapiens with 6 samples.

Results

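The genes of the heat shock, J-domain and chaperonin families were followed in samples labelled as the HER2-positive breast cancer line HCC1954. The members are the probes whose annotated symbol starts with HSPA, HSPB, HSPD, HSPE, HSPH or HSP90, or with DNAJA, DNAJB or DNAJC and a digit, or is TCP1 or one of CCT2 to CCT8. The 3 pseudogenes that match (CCT6P1, DNAJB3 and HSPA7) were dropped, and CCT8L2 lies outside the CCT2 to CCT8 range. This gave 83 genes on 129 probes, of 20045 named genes and 47321 probes on the array. The HSPB prefix also takes in HSPBAP1 and HSPBP1, which bind heat shock proteins and are not small heat shock proteins themselves. The readthrough gene DNAJC25-GNG10 is counted as a member of its own.

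The vehicle group (n = 3) received vehicle only and the inhibitor group (n = 3) received the compound TBK1 inhibitor II, each for 3 days. No dose is given in the labels, and no genotype or other agent distinguishes the groups. TBK1 is a kinase of innate immune signalling, and the series title names it as a therapeutic target in this cancer. Total RNA was hybridised to Illumina HumanHT-12 V4.0 beadchips, which give a signal intensity and a detection p-value for every probe.

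Heat shock proteins are chaperones that bind unfolded protein. HSP70 proteins hold and release their clients in an ATP cycle that J-domain proteins (DNAJ) start and nucleotide exchange factors, among them the HSP110 proteins, complete. HSP90 finishes the folding of kinases and receptors, ERBB2 among its known clients. Small heat shock proteins hold unfolded protein without ATP, and chaperonins enclose it, TRiC in the cytosol and HSPD1 with HSPE1 in mitochondria. The transcription factor HSF1 induces many of the cytosolic genes, while the chaperones of the endoplasmic reticulum (ER) answer to the unfolded protein response.

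Median signal intensity was 98.5 to 138.1 on the vehicle arrays and 110.7 to 130.7 on the inhibitor arrays, and 18325 to 20741 probes per array were detected (detection p under 0.05). Of 9 breast epithelial markers, 4 were detected on all 6 arrays and 4 (KRT7, KRT19, CLDN3 and ESRP1) on 0, and of 5 genes of the ERBB2 region 4 were detected on all 6, with GRB7 on 0. The 4 detected epithelial markers were dim, with median intensities of 172 (KRT8), 199.5 (KRT18), 194 (EPCAM) and 165 (CDH1). VIM, CDH2, NEFM and NEFL, known from mesenchymal and neural cells, were detected on all 6, with median intensities of 5667, 1407, 2003 and 220. These markers go partly against the label, and the samples are called by their label without their identity having been established. Whether the 3 samples per group were grown as separate cultures is not stated, and the p-values therefore reflect only the scatter among these arrays, possibly technical. In such bulk RNA, fewer cells of a type and less RNA per cell cannot be told apart.

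Of the 83 genes, 67 were measured, that is, had a probe detected on at least 3 of the 6 arrays, and 96 of their probes met this. After 3 days with the inhibitor 1 of them rose, the small heat shock gene HSPB3, and 1 fell, the J-domain gene DNAJC17. The other 65 did not pass the test (limma, Benjamini-Hochberg adjusted p under 0.05 over 11582 genes). The share called was 2.99%, against 5.45% of all genes tested, 3.59% higher and 1.86% lower. These are 416 genes higher and 215 lower, and median centring in place of quantile normalization gave 675 and 36, with the median of all genes at 0.24 and that of the members at 0.19. At an unadjusted p under 0.05 there were 13 members, against 24.4% of all genes. The calls thus gave no share of members above that of the array as a whole.

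Pooled over the families, sizes were small. The median log2 fold change of the members, inhibitor over vehicle, was 0.05, against 0.03 for all genes, with 34 above 0 and 33 below. Of the 67 members, 61 (91.0%) had a fitted change under 1.5-fold in either direction, against 87.3% of all genes, and 1 reached 2-fold, against 1.92%. The moderated standard error (SE) of a member's log2 fold change had a median of 0.17. The values of the groups did not overlap for 24 members (35.8%), 12 higher and 12 lower, against 31.5% of all genes, 18.5% higher and 13.0% lower. The 24 include DNAJC5G and DNAJC21, which were detected in the inhibitor group alone and had to be higher to be kept. Among the 65 members detected in both groups, 10 were higher and 12 lower (33.8%, against 30.6% of all genes detected in both groups), and the median log2 fold change was -0.02. Family medians ran from -0.35 over the 2 mitochondrial chaperonin genes to 0.50 over the 3 small heat shock genes, with 0.39 over the 9 DNAJB genes. The SD of the median between replicates was 0.33 for the small heat shock genes and 0.15 for DNAJB. Without the detection filter these 2 medians were 0.069 and 0.050. Differences between families were not tested.

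**Figure D1:**
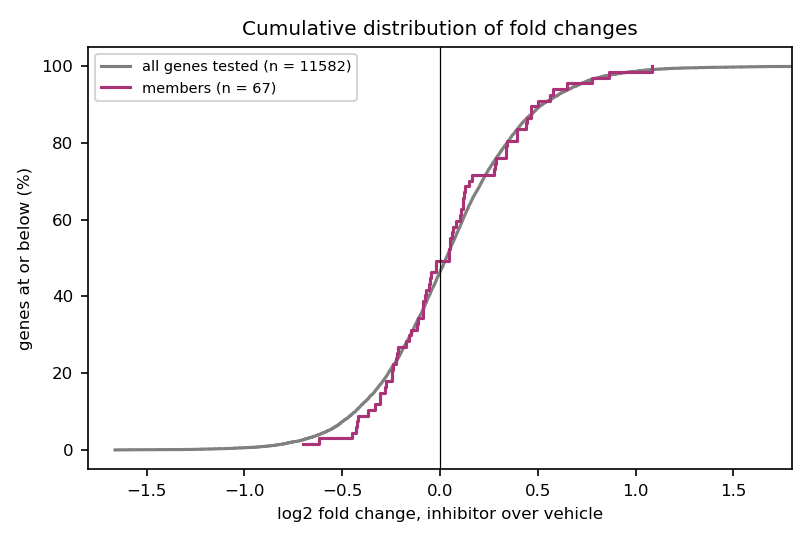
Cumulative share of genes (y axis, percent) at or below each log2 fold change, inhibitor over vehicle (x axis), for the 67 measured members and for all 11582 genes tested. The curves cross 0 close together, with medians of 0.05 and 0.03.

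**Figure D2:**
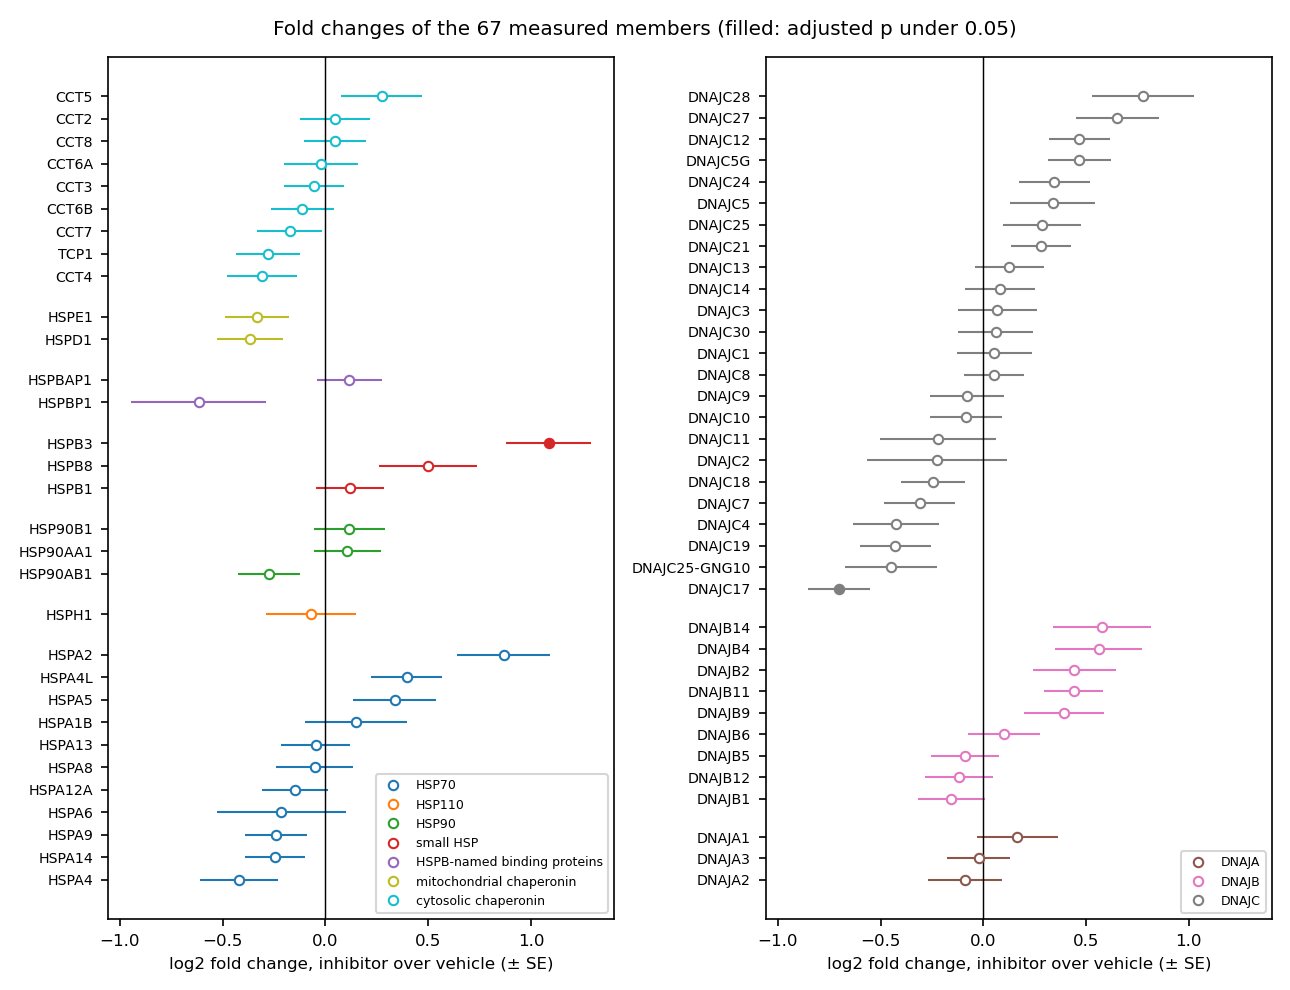
Log2 fold change, inhibitor over vehicle (x axis), of each of the 67 measured members by family, with the moderated SE as the bar. Filled points mark HSPB3 and DNAJC17, the members past an adjusted p of 0.05.

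Among the small heat shock genes HSPB3 rose and HSPB1 and HSPB8 did not pass. HSPB3 encodes a small heat shock protein best known from muscle, where it assembles with HSPB2. Its normalized log2 level was 5.70, 5.01 and 5.60 with vehicle and 6.68, 6.50 and 6.40 with the inhibitor. Every inhibitor sample lay above every vehicle sample. The log2 fold change was 1.09 ± 0.21 (SE, n = 3 per group, limma adjusted p = 0.0288), a 2.12-fold rise with a 95% confidence interval of 1.54-fold to 2.93-fold. Its probe was dim, with signal intensities of 106.8 to 168.1 on the vehicle arrays and 178.3 to 211.3 on the inhibitor arrays, and was detected on all 6. The deposited processed table gave a difference of 0.35 in its own units, as with every value from it here (adjusted p = 0.0291), and log2 values with quantile normalization and no background correction gave 0.43 (adjusted p = 0.0205). Leaving out inhibitor replicate 1, 2 or 3 ended the call (adjusted p = 0.0947, 0.114 and 0.106), though the log2 fold change was still 1.02 to 1.12. With a strict filter (detection p under 0.01 on all 6 arrays) its probe was not kept, and HSPB3 was not tested. The 250 bases before the RefSeq start of HSPB3 are shown because it was the only member that rose. Capitals mark a pair of inverted heat shock units (TTCNNGAA).
HSPB3 (GRCh38.p14, chr5:54455449-54455698, plus strand): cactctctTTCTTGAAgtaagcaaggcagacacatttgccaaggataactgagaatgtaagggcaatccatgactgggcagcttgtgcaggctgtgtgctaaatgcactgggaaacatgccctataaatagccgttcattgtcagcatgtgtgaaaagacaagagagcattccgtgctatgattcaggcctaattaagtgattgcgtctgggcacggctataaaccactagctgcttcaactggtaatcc

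HSPB8, a small heat shock protein that works with BAG3 in selective autophagy, had vehicle levels of 6.53, 5.74 and 6.48 and inhibitor levels of 7.01, 6.61 and 6.62. The groups did not overlap, yet the log2 fold change of 0.50 ± 0.24 did not pass (limma adjusted p = 0.231). HSPB1, the stress-inducible HSP27, had levels of 10.60, 10.42 and 10.36 with vehicle and 10.65, 10.73 and 10.37 with the inhibitor, and these overlapped. Its log2 fold change was 0.12 ± 0.17 (adjusted p = 0.704), with an interval from -0.25 to 0.49. HSPB2, HSPB6, HSPB7 and HSPB9 were detected on 0 arrays, so the known partner of HSPB3 had no level here. Of the genes named for binding to heat shock proteins, HSPBP1, an exchange factor of HSP70, had -0.62 ± 0.33 (adjusted p = 0.287) and HSPBAP1 had 0.12 ± 0.16 (adjusted p = 0.694).

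None of the 11 measured HSP70 genes passed. Their median log2 fold change was -0.05 (0.081 with median centring, under the 0.24 of all genes), with 4 above 0 and 7 below. The groups did not overlap for 2 higher and 3 lower (45.5%, against 31.5% of all genes). HSPA1B, the main heat-inducible HSP70 gene together with its near-identical neighbour HSPA1A, had levels of 13.11, 13.46 and 14.04 with vehicle and 13.65, 13.44 and 13.97 with the inhibitor. The spread between vehicle samples was wider than the difference between the groups. Its log2 fold change was 0.15 ± 0.25 (limma adjusted p = 0.762), with an interval of 0.752-fold to 1.64-fold. The HSPA1A probe was detected on 1 array and was not measured. The coding sequences of this pair are nearly the same, so transcripts of either may contribute to the signal given under HSPA1B. HSPA6, a gene known to be strictly heat-inducible in human cells, was dim, with intensities of 109.8 to 220.9, and had -0.21 ± 0.32 (adjusted p = 0.724).

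HSPA8, the constitutive cytosolic HSP70, had levels of 13.77, 13.21 and 13.30 with vehicle and 13.25, 13.46 and 13.41 with the inhibitor. The groups overlapped, and the log2 fold change was -0.05 ± 0.19 (limma adjusted p = 0.892), with an interval of 0.721-fold to 1.29-fold, and 0.081 with median centring. HSPA2, an HSP70 needed in male germ cells and present in many tumours, had the largest fitted change of the family. Its levels were 6.54, 6.23 and 5.76 with vehicle and 6.89, 7.34 and 6.90 with the inhibitor, which did not overlap. At 0.87 ± 0.23 it did not pass (adjusted p = 0.0582). Its other kept probe had 0.91 ± 0.15, with an adjusted p of 0.0225 over all 19958 kept probes. HSPA2 passed in 7 of 16 alternative settings, among them the mean of its probes (0.89, adjusted p = 0.0264) and the deposited processed values (0.37, adjusted p = 0.0479). Its 250 bases before the start hold no such pair of heat shock units.
HSPA2 (GRCh38.p14, chr14:64540491-64540740, plus strand): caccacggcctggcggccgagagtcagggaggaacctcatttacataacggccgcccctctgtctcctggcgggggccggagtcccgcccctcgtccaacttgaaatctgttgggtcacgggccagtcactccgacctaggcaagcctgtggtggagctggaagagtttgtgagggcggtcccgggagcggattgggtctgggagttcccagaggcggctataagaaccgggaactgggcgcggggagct

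**Figure D3:**
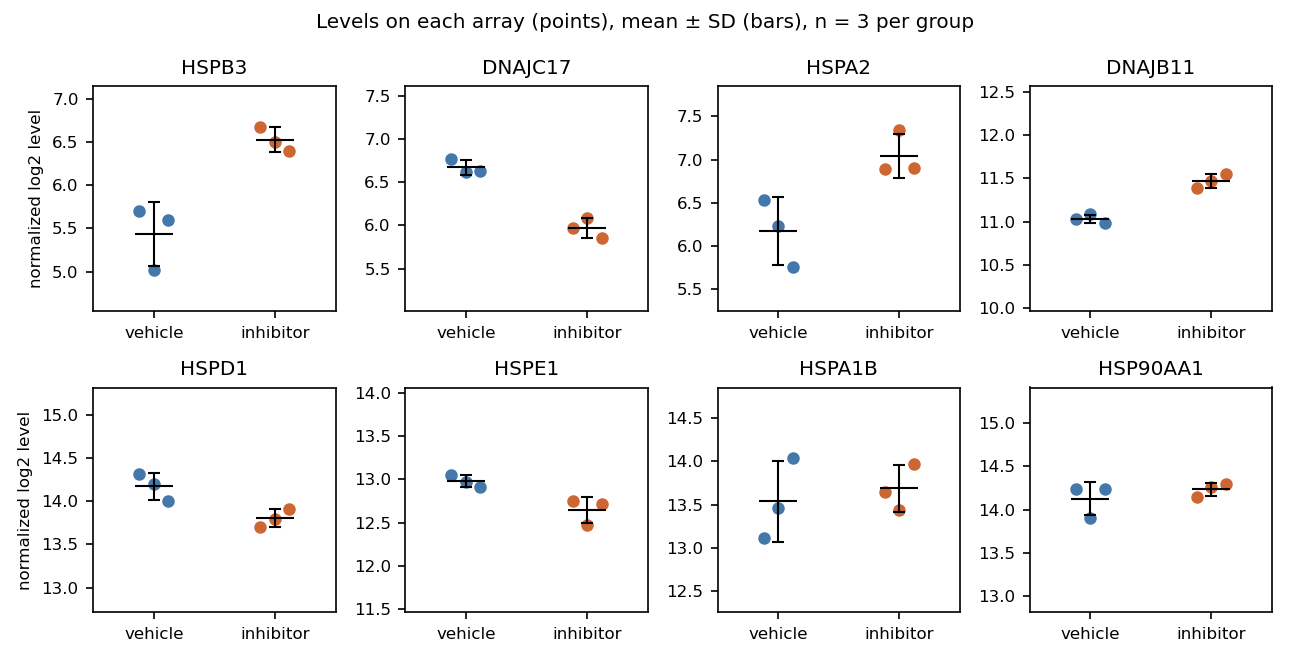
Normalized log2 level (y axis, each panel spanning the same number of log2 units) on each array for 8 members, with points for samples and bars for the mean ± SD of the 3 samples per group. The groups lie apart for HSPB3, DNAJC17, HSPA2, DNAJB11, HSPD1 and HSPE1, and overlap for HSPA1B and HSP90AA1.

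The HSP110-type exchange factors differed among themselves in sign. On the probe used, HSPA4 had levels of 11.01, 10.92 and 11.09 with vehicle and 10.22, 10.85 and 10.68 with the inhibitor, all lower. HSPA4L, its close relative, had 8.69, 8.52 and 8.78 with vehicle and 8.85, 9.30 and 9.01 with the inhibitor, all higher. Neither log2 fold change passed (-0.42 ± 0.19, limma adjusted p = 0.213, and 0.39 ± 0.17, adjusted p = 0.201). The other kept HSPA4 probe had -0.22 ± 0.16, with overlapping groups. The HSP110 gene HSPH1 had -0.07 ± 0.22 (adjusted p = 0.876) with overlapping groups, and 0.075 with median centring. Further HSP70 genes were HSPA14, a partner of the ribosome (-0.25 ± 0.15, adjusted p = 0.337), HSPA12A (-0.15) and HSPA13 (-0.05). HSPA1L and HSPA12B were detected on 0 arrays.

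All 3 HSP90 genes were measured and 0 passed. HSP90AA1, the inducible cytosolic form, had levels of 14.23, 13.91 and 14.24 with vehicle and 14.15, 14.26 and 14.29 with the inhibitor. HSP90AB1, the constitutive cytosolic form, had 12.44, 12.34 and 12.21 with vehicle and 11.99, 12.13 and 12.04 with the inhibitor. The groups overlapped for HSP90AA1 on this probe and lay apart, lower, for HSP90AB1. Another HSP90AA1 probe also lay apart and lower, at -0.35 ± 0.16, and HSP90AA1 had -0.095 with the mean of its probes and -0.0046 without vehicle replicate 2. Their log2 fold changes were 0.11 ± 0.16 (limma adjusted p = 0.731) and -0.28 ± 0.15 (adjusted p = 0.295). HSP90B1, the ER form, had 0.12 ± 0.17 (adjusted p = 0.726). The intervals ran from 0.837-fold to 1.39-fold for HSP90AA1, from 0.653-fold to 1.04-fold for HSP90AB1 and from 0.828-fold to 1.42-fold for HSP90B1.

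J-domain genes made up 45 of the 83 members, of which 36 were measured. Of these, 0 were called higher and 1 lower (2.78%, against 5.45% of all genes). DNAJC17, a nuclear J protein with an RNA recognition motif that is linked to splicing, had levels of 6.77, 6.62 and 6.62 with vehicle and 5.97, 6.08 and 5.85 with the inhibitor. Every inhibitor sample lay below every vehicle sample. The log2 fold change was -0.70 ± 0.15 (SE, n = 3 per group, limma adjusted p = 0.0342), with an interval of 0.485-fold to 0.778-fold of the vehicle level. The deposited processed values gave -0.27 (adjusted p = 0.0505) and median centring gave -0.41 (adjusted p = 0.463), so the call ended with either. It also ended when any 1 of the 6 samples was left out, with adjusted p-values of 0.0557 to 0.148 and log2 fold changes of -0.75 to -0.63. The probe was dim (143.8 to 231.5) and detected on all 6 arrays. The 250 bases before its start are shown because it was the only member that fell. They hold neither pair of inverted heat shock units (GAANNTTC or TTCNNGAA).
DNAJC17 (GRCh38.p14, chr15:40807474-40807723, minus strand): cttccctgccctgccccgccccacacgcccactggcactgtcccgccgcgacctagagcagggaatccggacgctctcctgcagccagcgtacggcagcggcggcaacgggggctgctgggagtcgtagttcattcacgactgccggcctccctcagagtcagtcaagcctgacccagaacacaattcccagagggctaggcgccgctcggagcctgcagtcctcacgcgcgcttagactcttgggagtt

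The 3 measured DNAJA genes, partners of HSP70 in the cytosol and mitochondria, did not pass. DNAJA1, the main cytosolic member, had levels of 12.75, 12.05 and 12.29 with vehicle and 12.44, 12.56 and 12.59 with the inhibitor, which overlapped (0.17 ± 0.20, limma adjusted p = 0.657). DNAJA2 had -0.09 and DNAJA3, the mitochondrial member, -0.02, and both lay above 0 with median centring (0.054 and 0.11). DNAJA4 was detected on 0 arrays.

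Of 9 measured DNAJB genes, 6 had a log2 fold change above 0 and 0 passed. The groups did not overlap for 3 of these 6 (33.3% of the family, against 31.5% of all genes). The median log2 fold change of the family was 0.39, and it was 0.24 when arrays were weighted by quality and 0.050 without the filter on dim probes. DNAJB11, an ER partner of HSPA5, had 11.03, 11.08 and 10.99 with vehicle and 11.39, 11.47 and 11.55 with the inhibitor. These samples were tightly grouped and lay apart, and the log2 fold change was 0.44 ± 0.15 (limma adjusted p = 0.109). DNAJB11 passed in 3 of 16 alternative settings, with the deposited processed values (0.43, adjusted p = 0.0134), with quantile normalization without background correction and with an offset of 50. DNAJB4, a cytosolic partner of HSP70, had 0.56 ± 0.21 (adjusted p = 0.146), DNAJB14, of the ER membrane, 0.58 ± 0.24 (adjusted p = 0.176) and DNAJB9, a J protein of the ER induced by the unfolded protein response, 0.39 ± 0.20 (adjusted p = 0.252). DNAJB2, which is enriched in neurons, had 0.44 ± 0.20 (adjusted p = 0.216). DNAJB1, the classical heat-inducible J protein, had levels of 9.01, 9.06 and 9.18 with vehicle and 8.84, 9.16 and 8.79 with the inhibitor. Its groups overlapped, at -0.16 ± 0.16 (adjusted p = 0.607), or 0.087 with median centring. DNAJB5 (-0.09), DNAJB6 (0.10) and DNAJB12 (-0.12) were the others. DNAJB7 and DNAJB13 were detected on 0 arrays and DNAJB8 on 1.

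The DNAJC family, whose members share little beyond the J domain, had 24 of 29 genes measured, with 14 log2 fold changes above 0, 10 below and a median of 0.06. For the 22 detected in both groups these were 12, 10 and 0.05. DNAJC27, which joins a J domain to a small GTPase, had levels of 6.40, 6.99 and 6.96 with vehicle and 7.32, 7.33 and 7.65 with the inhibitor (0.65 ± 0.20, limma adjusted p = 0.0925). DNAJC12, which binds the aromatic amino acid hydroxylases, had 9.84, 10.03 and 9.88 with vehicle and 10.35, 10.46 and 10.34 with the inhibitor (0.47 ± 0.15, adjusted p = 0.0978). DNAJC28 had 11.37, 12.41 and 11.95 with vehicle and 12.63, 12.62 and 12.81 with the inhibitor (0.78 ± 0.25, adjusted p = 0.0979). On the probes used, the inhibitor samples of each of these genes lay above all vehicle samples, without passing the test. Over the family, the groups did not overlap for 5 higher and 4 lower (37.5%, against 31.5% of all genes). Among DNAJC genes detected in both groups these were 3 higher and 4 lower (31.8%, against 30.6% of all genes so detected). The lower ones were DNAJC17, DNAJC19, DNAJC7 (-0.31 ± 0.17, limma adjusted p = 0.309) and DNAJC18 (-0.24 ± 0.15, adjusted p = 0.367). The DNAJC28 probe used had intensities of 1992.6 to 8589. Its other kept probe had 101.6 to 154.2, with 0.21 ± 0.18 and overlapping groups. DNAJC28 probes that were not kept were detected on 0 vehicle arrays and on 0 or 1 inhibitor array. DNAJC27 passed in 1 of 16 alternative settings, DNAJC12 in 3 and DNAJC28 in 5. The value of DNAJC12 also depends on the probe. Without vehicle replicate 1 another of its probes became the brightest and gave -0.0036, while the probe reported here gave 0.43 in the same fit.

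The probes that stand for DNAJC5G and DNAJC21, the latter a factor of ribosome assembly, were not well above background on any vehicle array and were kept through the inhibitor arrays alone. Their direction was thus fixed by the filter. Against a detection floor, the fold was 1.10 for DNAJC5G and 1.01 for DNAJC21, as point values without an interval. Neither gene passed (limma adjusted p = 0.107 and 0.273), and with the direction fixed these p-values are no test of a rise. A DNAJC21 probe that was not kept, detected on 2 vehicle arrays and 0 inhibitor arrays, had the opposite direction, with 5.12, 5.05 and 5.04 with vehicle and 4.78, 4.63 and 4.92 with the inhibitor. These folds set the mean of the inhibitor group against the higher of the probe's own level and the lowest level of a detected probe on each vehicle array. DNAJC8, a J protein of the spliceosome like DNAJC17 in its link to splicing, had 12.30, 12.27 and 12.28 with vehicle and 12.42, 12.23 and 12.35 with the inhibitor. Its log2 fold change was 0.05 ± 0.15 (adjusted p = 0.867). DNAJC3, an ER J protein that restrains the kinase PERK, had 0.07 ± 0.19 (adjusted p = 0.866). The other measured genes of the family had values from -0.45 (DNAJC25-GNG10) to 0.34 (DNAJC24, an enzyme cofactor of diphthamide synthesis). DNAJC5B, DNAJC6, DNAJC16 and DNAJC22 were detected on 0 arrays and DNAJC15 on 1.

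On the probes that stand for them, the genes of the mitochondrial chaperonin had lower levels in every inhibitor sample, without passing. HSPD1, which forms the barrel, had levels of 14.31, 14.20 and 13.99 with vehicle and 13.70, 13.79 and 13.91 with the inhibitor. HSPE1, which forms the lid, had 13.05, 12.97 and 12.91 with vehicle and 12.75, 12.47 and 12.71 with the inhibitor. The log2 fold changes were -0.37 ± 0.16 (limma adjusted p = 0.195) and -0.33 ± 0.16 (adjusted p = 0.226). The other kept HSPE1 probe had 12.14, 12.32 and 11.58 with vehicle and 11.56, 12.01 and 11.08 with the inhibitor, which overlapped (-0.46 ± 0.27). The groups also overlapped on the dimmest kept HSPD1 probe (0.15 ± 0.18). With median centring HSPD1 had -0.17 and HSPE1 -0.18. With the deposited processed values HSPD1 had -0.42 and passed (adjusted p = 0.0399), and the other 15 alternatives did not give a call for it. The starts of this pair of genes lie head to head, and the RefSeq sequence between them is shown because one stretch of DNA serves both genes. It is written on the strand of HSPE1, and no pair of inverted heat shock units was found in it.
HSPD1 and HSPE1 (GRCh38.p14, chr2:197500275-197500378, plus strand): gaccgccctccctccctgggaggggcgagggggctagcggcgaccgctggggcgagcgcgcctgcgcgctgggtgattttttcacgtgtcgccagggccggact

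Other mitochondrial members were read beside them, in a grouping made after their values were seen. HSPA9, the mitochondrial HSP70, had levels of 12.40, 12.30 and 12.48 with vehicle and 12.13, 12.07 and 12.25 with the inhibitor, which lay apart (-0.24 ± 0.15, limma adjusted p = 0.364). DNAJC19, a J protein of the inner membrane import motor, had 7.67, 7.27 and 7.31 with vehicle and 6.95, 7.14 and 6.88 with the inhibitor (-0.43 ± 0.17, adjusted p = 0.169). The grouping may leave out other mitochondrial members. Of the 7 measured genes placed in it, 6 had a log2 fold change below 0 and 1 above, with a median of -0.24, and 0 passed. DNAJC11 (-0.22), DNAJA3 (-0.02) and DNAJC30 (0.06) were the others. With median centring DNAJA3 had 0.11 and the median of all genes was 0.24, and the split was not counted anew with it. Of the 7 members placed in the ER lumen, 5 were above 0 and 2 below, with a median of 0.12, and 0 passed. Their values ran from -0.09 (DNAJC10) to 0.44 (DNAJB11). Over all genes tested, 6218 values lay above 0 and 5364 below, with a median of 0.03. HSPA5, the ER form of HSP70 known as BiP, had 8.78, 8.41 and 8.48 with vehicle and 9.26, 8.65 and 8.77 with the inhibitor, which overlapped (0.34 ± 0.20, adjusted p = 0.338). The difference between these compartments was not tested.

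The cytosolic chaperonin TRiC, which folds actin and tubulin, had all 9 genes measured and 0 called. Their median log2 fold change was -0.05 (0.13 with median centring, under the 0.24 of all genes), between -0.31 and 0.27, with 3 above 0 and 6 below. TCP1 had levels of 12.94, 12.82 and 12.93 with vehicle and 12.46, 12.78 and 12.61 with the inhibitor. CCT4 had 9.07, 8.71 and 8.81 with vehicle and 8.37, 8.62 and 8.68 with the inhibitor. On the probes used, the groups of these 2 genes did not overlap (22.2%, against 31.5% of all genes), and those of the other 7 did. The log2 fold changes were -0.28 ± 0.16 (limma adjusted p = 0.302) for TCP1 and -0.31 ± 0.17 (adjusted p = 0.304) for CCT4. Other kept TCP1 probes had -0.32 ± 0.21 and -0.37 ± 0.23, both with overlapping groups. CCT5 had 0.27 ± 0.20 (adjusted p = 0.430), CCT7 -0.17 ± 0.16 (adjusted p = 0.550) and CCT8 0.05 ± 0.15 (adjusted p = 0.878), and CCT2, CCT3, CCT6A and CCT6B lay between -0.11 and 0.05.

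Probes of a gene gave a further reading of 20 members. All kept probes had the same direction in 15 of them. The probes of HSPA2 and HSPBP1 differed by 0.044 and 0.0078, while those of DNAJB6, a J protein that keeps proteins from aggregating, differed by 0.85. The DNAJB6 probe used had levels of 10.67, 10.69 and 11.06 with vehicle and 10.94, 10.72 and 11.06 with the inhibitor (0.10 ± 0.18). Its other kept probe had 9.92, 9.46 and 9.67 with vehicle and 10.32, 10.91 and 10.66 with the inhibitor, which lay apart (0.95 ± 0.20, limma adjusted p = 0.0388 over all kept probes). The transcripts that each DNAJB6 probe detects were not resolved. The probes of DNAJB14 ranged from -0.47 to 0.58, those of DNAJC12 from -0.25 to 0.53 and those of HSP90AA1 from -0.35 to 0.11. HSPD1 had -0.37, -0.41 and -0.40 on its brighter probes and 0.15 on the dimmest, which was detected on 2 of 3 vehicle arrays. The probes of HSPA8 lay between -0.05 and 0.02.

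**Figure D4:**
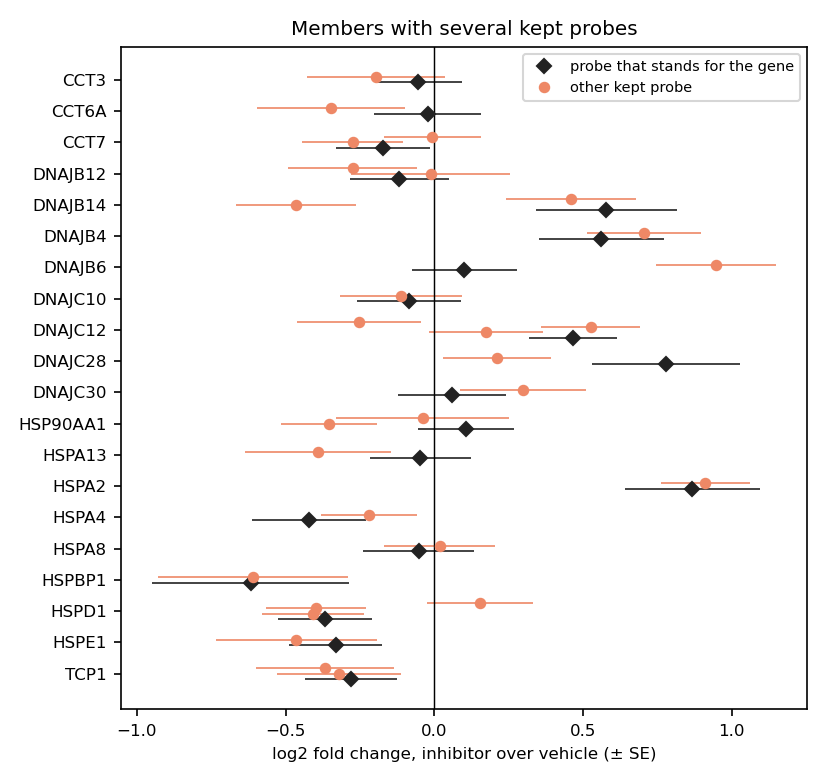
Log2 fold change, inhibitor over vehicle (x axis), of each kept probe of the 20 members with several kept probes, with the moderated SE as the bar. The probes of DNAJB6 (0.10 and 0.95) and DNAJB14 (-0.47 to 0.58) lie far apart, those of HSPA2 (0.87 and 0.91) close together.

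The heat shock element is the DNA motif through which HSF1 acts. RefSeq start windows, from 250 bases before a start to 50 after it, were found for 75 of the 83 members, 98 windows in all. The element of 3 inverted units, in which the pairs GAANNTTC and TTCNNGAA overlap by their shared middle unit, was searched on both strands and occurred in 7 of these windows (7.14%) and in 0.49% of 35116 windows of all genes. The 7 genes, all measured, are shown with the motif in capitals and 8 bases on each side where the window allows. Positions count from the start, with negative numbers before it. In HSPD1, matches on both strands overlap and the window belongs to a start other than the shared one above.
DNAJA1 (GRCh38.p14, chr9:33025268-33025296, plus strand, first motif base at 4): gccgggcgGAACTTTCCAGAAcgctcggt
DNAJB6 (GRCh38.p14, chr7:157336865-157336893, plus strand, first motif base at -131): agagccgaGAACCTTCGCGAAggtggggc
HSP90AA1 (GRCh38.p14, chr14:102087112-102087140, minus strand, first motif base at -88): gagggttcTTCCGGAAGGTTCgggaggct
HSP90AB1 (GRCh38.p14, chr6:44247770-44247798, plus strand, first motif base at -165): ggagcaggTTCTGGAAGATTCatgggctc
HSP90AB1 (GRCh38.p14, chr6:44247823-44247851, plus strand, first motif base at -112): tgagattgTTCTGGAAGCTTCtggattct
HSPA6 (GRCh38.p14, chr1:161524458-161524486, plus strand, first motif base at -74): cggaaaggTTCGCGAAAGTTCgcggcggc
HSPA8 (GRCh38.p14, chr11:123062346-123062374, minus strand, first motif base at -230): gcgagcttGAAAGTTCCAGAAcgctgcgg
HSPA8 (GRCh38.p14, chr11:123062171-123062199, minus strand, first motif base at -55): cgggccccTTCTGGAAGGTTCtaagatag
HSPD1 (GRCh38.p14, chr2:197500060-197500090, minus strand, first motif base at -245): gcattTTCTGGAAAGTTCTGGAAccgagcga

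On the probes used, none of these 7 genes passed. Their log2 fold changes ran from -0.37 (HSPD1) to 0.17 (DNAJA1), with 3 above 0, 4 below and a median of -0.05. The other kept DNAJB6 probe had 0.95 ± 0.20 (limma adjusted p = 0.0388 over all kept probes), and another HSP90AA1 probe had -0.35 ± 0.16. A match is a description of the letters and no evidence of binding. The shorter pair GAANNTTC, which lies within the longer motif, was found in 20.4% of member windows and 6.77% of all windows. For TTCNNGAA, also part of the longer motif, the shares were 15.3% and 7.74%.

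The ER stress element, CCAAT and CCACG with any 9 bases between them, through which the unfolded protein response acts, was searched on both strands and occurred in 2 members, HSPA5 and HSP90B1, and in 0.0769% of all windows. Their log2 fold changes were 0.34 and 0.12. The element is shown in capitals.
HSP90B1 (GRCh38.p14, chr12:103930208-103930242, plus strand, first motif base at -194): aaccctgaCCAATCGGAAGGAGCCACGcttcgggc
HSP90B1 (GRCh38.p14, chr12:103930313-103930347, plus strand, first motif base at -89): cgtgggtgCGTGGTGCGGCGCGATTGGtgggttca
HSPA5 (GRCh38.p14, chr9:125241383-125241417, minus strand, first motif base at -66): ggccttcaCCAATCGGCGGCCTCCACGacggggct

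Partners that work with these chaperones were read from 5 lists with 55 genes, of which 43 were measured, HSPBP1 among them. CHORDC1 was called higher, SERPINH1 lower and the other 41 not at all, and 14 of the 43 values lay above 0 and 29 below. Over all genes tested, 3.59% were called higher and 1.86% lower, and 6218 of 11582 values lay above 0. CHORDC1, a zinc-binding partner of HSP90, had levels of 9.97, 9.60 and 9.86 with vehicle and 10.51, 10.67 and 10.85 with the inhibitor. All inhibitor samples were higher, and CHORDC1 had a log2 fold change of 0.87 ± 0.17 (limma adjusted p = 0.0300), the only call among 12 HSP90 co-chaperones. SERPINH1, the collagen chaperone HSP47 of the ER, had 7.10, 7.33 and 7.59 with vehicle and 6.28, 6.20 and 6.10 with the inhibitor. All inhibitor samples were lower, and its log2 fold change was -1.15 ± 0.17 (adjusted p = 0.0189), the only call among 9 other folding genes. Leaving out inhibitor replicate 1, 2 or 3 ended either call, with adjusted p-values of 0.0838, 0.114 and 0.123 for CHORDC1 and 0.0694, 0.0943 and 0.0967 for SERPINH1. For CHORDC1 it also ended without vehicle replicate 2 (0.0573) and without vehicle replicate 3 (0.0566). SERPINH1 had -0.53 in the deposited processed table, and its call ended with median centring (-0.85, adjusted p = 0.0611).

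No gene was called among 12 measured exchange and docking factors of HSP70 or 9 genes of prefoldin and its assistants, with median log2 fold changes of -0.07 and -0.02. BAG3, an exchange factor induced by HSF1, had levels of 8.33, 8.52 and 8.74 with vehicle and 8.54, 8.50 and 8.56 with the inhibitor. These overlapped, with a log2 fold change of 0.00 ± 0.16 (limma adjusted p = 0.999). HSF1 itself was detected on 1 array and was not measured. HSBP1, a small protein that binds HSF1, had 0.31 ± 0.16 (adjusted p = 0.255).

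**Figure D5:**
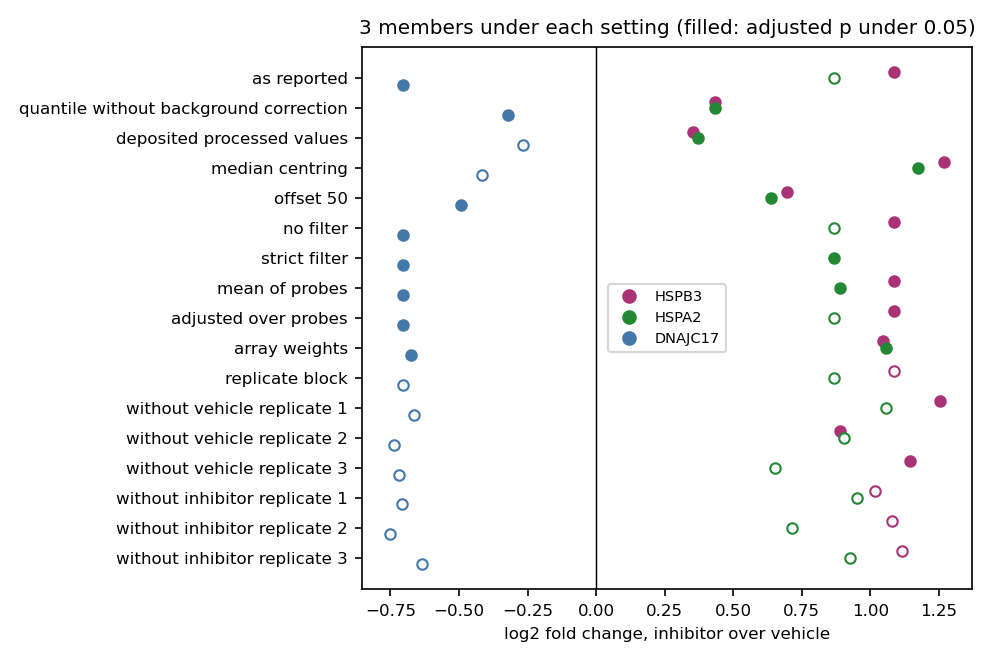
Log2 fold change, inhibitor over vehicle (x axis), of HSPB3, HSPA2 and DNAJC17 under the processing used and each alternative (y axis), with the deposited processed values in their own log units. Points are filled where the adjusted p was under 0.05, which held for HSPB3 in 11 of 15 alternatives, HSPA2 in 7 of 16 and DNAJC17 in 7 of 16, and no point changes its side of 0. HSPB3 has no point for the strict filter, which did not keep it.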

How the data were processed

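RNA was measured in 6 samples, 3 vehicle and 3 inhibitor, grouped by their titles. Per the file headers, the deposited table holds each probe's intensity and detection p-value on every array, and array medians differ. A second deposited table holds values on a log2-like scale with a median of 7.16 on all arrays. The submitters' processing notes name lumi, and the log base is not stated. For bright probes (geometric mean intensity above 1000) these values had slopes of 0.974 to 1.04 on log2 intensity, and dim probes were not compared in this way.

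The intensities were read into limma 3.58.1 (R 4.3.3) for neqc, with an offset of 16, quantile normalization and log2. A probe was kept if its detection p was below 0.05 on 3 or more arrays, which left 19958. Quantile normalization removes a shift shared by most genes, and background correction widens the fold changes of dim probes. Of 47321 probes, 30112 had 1 gene symbol, 8 several and 17201 none. Gene IDs gave current RefSeq symbols (GRCh38.p14) for 30073. The brightest kept probe stood for a gene, which gave 11582 genes. Groups were compared two-sided with lmFit and eBayes without covariates, and p-values were adjusted over genes (Benjamini-Hochberg, 0.05). The procedure was tested on simulated data. The number of arrays limits precision.

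The members and the partner lists were chosen with earlier results of these data known, and the compartments and promoters after seeing the values. Named by rule were genes past the threshold, a set of main chaperones, HSF1, and in each family the 3 with the smallest p and the brightest 2. Other genes named with values were picked after their values were seen. Alternatives changed the background correction, normalization, offset, filter, probe choice, adjustment, array weights, a replicate block and each sample in turn.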

Additional observations from a re-analysis of the deposited data

How the results depend on the processing

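The counts of calls were the least stable values. Members called higher, 1 as reported, numbered 5 without background correction, with the deposited processed values or with an offset of 50, 4 with median centring, and 2 with the mean of probes or array weights. With the strict filter the number was again 1, but the gene was HSPA2, as HSPB3 was not kept. Leaving out 1 sample gave 0 to 2 higher and 0 to 0 lower, and median centring gave 0 lower. Partners called higher numbered 2 without background correction and with the deposited processed values. Partners called lower numbered 2 without background correction and with array weights, and 0 with median centring. Leaving out 1 sample gave 0 to 1 partner in each direction. Over all genes, 631 calls became 1367 without background correction, 1355 with the deposited processed values, 1176 with an offset of 50 and 970 with array weights. They became 18, 2 and 2 without inhibitor replicate 1, 2 or 3, and 265, 422 and 244 without vehicle replicate 1, 2 or 3. Same-numbered samples had deviations from their group means that correlated at -0.14, 0.02 and 0.12, and differently numbered samples at -0.21 to 0.17. With 3 samples per group, these values cannot decide whether the numbers pair the samples. With the replicate number as a block, 40 genes were called, with 0 members and 0 partners in either direction, and HSPB3 and DNAJC17 had adjusted p-values of 0.0581 and 0.0779.

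Median centring moved the median of all genes to 0.24 and the split of calls to 675 higher and 36 lower, from 416 and 215. It moved family medians of the log2 fold change to 0.13 (cytosolic chaperonin), 0.58 (DNAJB), 0.29 (DNAJC), 0.081 (HSP70), 0.25 (HSP90), 0.052 (HSPB-named binding proteins), -0.18 (mitochondrial chaperonin) and 0.19 (all members). It turned DNAJA2 to 0.054, DNAJA3 to 0.11, DNAJB1 to 0.087, HSPA8 to 0.081 and HSPH1 to 0.075. The median of all members was -0.0032 without the filter, -0.022 with the strict filter, -0.017 with the mean of probes and -0.027 to 0.067 on leaving out 1 sample. The DNAJB median was 0.050 without the filter and 0.24 with array weights, and the small heat shock median 0.069 without the filter and 0.12 with the strict filter. The strict filter kept neither HSPB3 nor HSPB8, so that 0.12 is the value of HSPB1 alone. On leaving out 1 sample the DNAJC median was -0.082 to 0.073 and the HSP90 median -0.0046 to 0.17, and with the mean of probes the HSP90 median and HSP90AA1 had -0.095. Array weights turned HSPA1B to -0.046, HSPA8 to 0.036 and HSPH1 to 0.050. Leaving out 1 sample in turn gave -0.024 to 0.088 for CCT8, -0.21 to 0.040 for DNAJA2, -0.072 to 0.064 for DNAJA3, -0.0036 to 0.52 for DNAJC12, -0.12 to 0.20 for DNAJC3, -0.0046 to 0.17 for HSP90AA1, -0.065 to 0.40 for HSPA1B, -0.16 to 0.12 for HSPA8 and -0.25 to 0.11 for HSPH1. For DNAJC12 the brightest probe changed in 4 of these 6 fits, and the probe reported gave 0.43 to 0.52 in all 6. The cause of the other turns was not tested. Of 638 values of 40 named genes under the alternatives, 574 kept direction and side of the threshold, 24 lost the call, 20 gained it and 20 changed sign. Signal near background limits the dim genes HSPB3, DNAJC17 and HSPA2.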
